A study of Mus musculus with 10 samples.

Results

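Chromatin loops near 9 inflammatory genes were described across a macrophage priming model. The genes encode the cytokines TNF, IL-1α, IL-1β, IL-6, IL-10, IL-18, both subunits of IL-12 (Il12a and Il12b) and the inducible cyclooxygenase Ptgs2. A loop belonged to a gene when at least 1 of its anchor bins overlapped the 100 kb on either side of the transcription start site (TSS), in GENCODE M21 on GRCm38. By this rule 345 different pairs of 10 kb bins lay near the 9 genes, of 153264 in the series, and the genes were 9 of 21728 protein-coding genes.

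Hi-C counts how often stretches of DNA are near one another in the nucleus. It was run on macrophages grown from the bone marrow of wild-type female C57BL/6 mice, 2 to 3 months old, in 20 ng/ml M-CSF, a growth factor that all groups received. CTR cells, the untreated M0 macrophages, had no further cytokine. IL4 cells were given IL-4 at 20 ng/ml for 24 h, beginning on day 6. preIL4 cells, the IL-4-primed cells, had the same IL-4 exposure and then a washout and 24 h of rest. IFNG cells were given IFNG at 20 ng/ml for 3 h with no IL-4 before it, and preIL4IFNG cells were given the same IFNG after IL-4, washout and rest. Each group had 2 replicates, and 1 loop list stood for each group, so no difference between lists has a replicate check. Hi-C holds no RNA, so the labelled cell type could not be checked against marker genes and no statement on expression is made.

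The lists held from 53424 loops (CTR) to 67728 (preIL4), with a median of 32 contacts per loop in every list and a median span of 160 to 180 kb. Contacts are whole-number counts at a called bin pair. A pair that is absent from a list was not called there, and its contacts are then unknown rather than 0. Intervals on contacts are exact 95% Poisson intervals and cover counting error only.

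Inflammatory cytokines are made by macrophages after microbial or cytokine signals reach factors of the NF-kB, STAT and AP-1 families. IL-4 acts mainly through STAT6. A promoter can be brought near distant enhancers by loops, many of which are held by the DNA-binding protein CTCF and the ring complex cohesin. IL-1α, IL-1β, IL-6, TNF and IL-12 promote inflammation, IL-18 helps to induce IFNG in lymphocytes, IL-10 restrains macrophage activation, and the enzyme encoded by Ptgs2 begins prostaglandin synthesis.

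Near the 9 genes together the lists held 145 loops in CTR, 144 in IL4, 178 in preIL4, 171 in IFNG and 165 in preIL4IFNG. The genes fell into loop-rich and loop-poor loci. Tnf had the most, between 57 and 72 loops per list, and lay between the 94.4th and 97.4th percentiles of all genes. Il1a (33 to 43 loops), Il1b (28 to 35), Il10 (13 to 21) and Ptgs2 (11 to 16) followed. Il12b had 8 to 15 loops, Il18 had 3 to 10, and Il6 and Il12a had 1 to 6 each, where the median gene had 6 to 8.

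**Figure D1:**
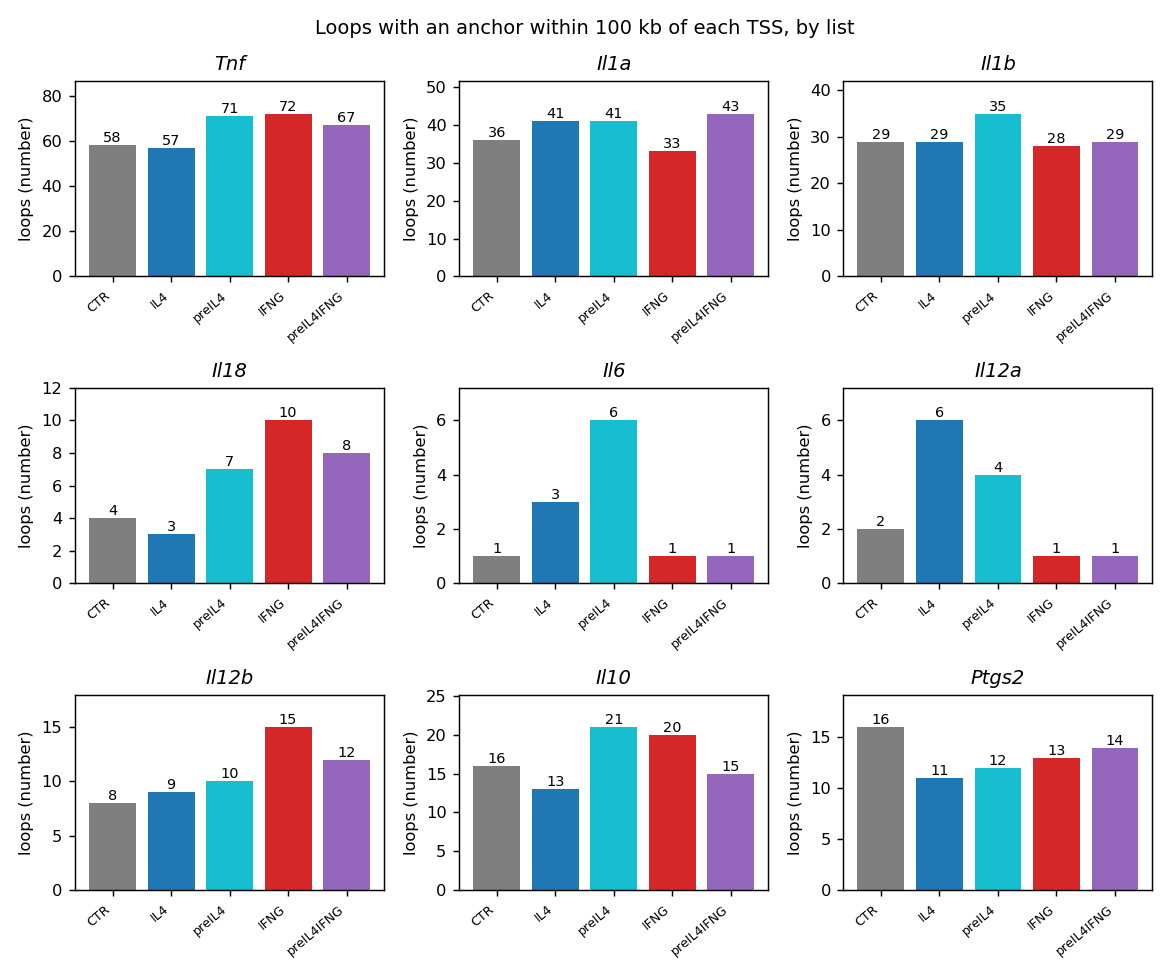
Number of loops with an anchor within 100 kb of the TSS of each gene (y axis, number of loops, a separate scale per panel) in the 5 lists (x axis). Bars start at 0 and carry their count, and with 1 list per group there is no error bar. Il6 has 1 loop in CTR and 6 in preIL4, and Il18 has 4 in CTR and 10 in IFNG.

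Il6, the cytokine that drives the acute-phase response, lies on the plus strand at chr5:30013114-30019981 (ENSMUSG00000025746.11). It had 1 loop in CTR, 3 in IL4, 6 in preIL4, 1 in IFNG and 1 in preIL4IFNG. All 11 bin pairs reached upstream, to anchors between 29770001 and 29860000, the outermost in or beside Dnajb6, a co-chaperone gene. The anchors at 29840001 and 29850001 overlapped no protein-coding gene. The bin that holds the Il6 TSS, chr5:30010001-30020000, was an anchor in IL4 and preIL4 and in no other list.

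The TSS bin was joined to chr5:29840001-29850000, 163 to 173 kb upstream, with 25 contacts in IL4 (16.2 to 36.9) and 23 in preIL4 (14.6 to 34.5). This is the only Il6 bin pair called in more than 1 list. In preIL4 the TSS bin also met 29820001 with 20 contacts (12.2 to 30.9) and 29790001 with 23 (14.6 to 34.5). The loop from 29840001 was thus called with IL-4 present and after washout, with intervals that overlapped widely.

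The remaining Il6 loops ended upstream of the TSS bin or beyond the gene. In IL4, 29820001 met 30000001, the bin next to the TSS bin, with 24 contacts, and 29850001 met 29950001, 53 to 63 kb upstream of the TSS, with 34. In preIL4, 29830001 met 29960001 with 30 contacts, 29780001 met 30000001 with 23, and 29770001 met 30080001 with 21. The CTR loop joined 29770001 to 30000001 with 29 contacts and so ended 3 to 13 kb upstream of the TSS. The IFNG and preIL4IFNG loops both ended at 30080001, 67 to 77 kb downstream of the TSS, with 21 and 22 contacts, and spanned the gene.

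When pairs were matched with both anchors within 25 kb, none of the 11 Il6 pairs was found in all 5 lists, and 6 of 11 were found in the IL-4 or washout lists with no match in CTR or IFNG. Over all 9 genes such pairs were 12 of 345, or 3.48%, and in the series 7.03%. Following calls in CTR, IL4 and preIL4, 3 pairs were Memory (in IL4 with a match in preIL4 and none in CTR) and 1 was Primed (in preIL4 only). All 3 loops of IL4 were Memory. The preIL4 loop between 29790001 and the TSS bin was matched by the CTR loop, so it was in neither class. The counts of 1 to 6 loops have wide counting error. Strength means contacts over the median of that list's loops of equal span. The single CTR loop had a strength of 1.12, and the medians of the other lists were 0.81 to 0.96, below the median of their span. The pair from 29840001 to the TSS bin had 0.81 in IL4 and 0.74 in preIL4.

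The 250 bases before the Il6 start, which lie in the bin that the IL4 and preIL4 loops anchor on, are shown with the match to an NF-kB type motif, GGGNNNTTCC, in capitals. The sequence is from RefSeq on GRCm38.p6, chr5:30012864-30013113, plus strand.
Il6 promoter: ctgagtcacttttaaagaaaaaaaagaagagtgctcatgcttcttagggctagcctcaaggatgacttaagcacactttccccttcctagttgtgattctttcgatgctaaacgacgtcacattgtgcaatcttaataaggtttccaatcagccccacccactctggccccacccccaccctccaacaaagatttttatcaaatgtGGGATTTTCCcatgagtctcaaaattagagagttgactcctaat
The match starts 44 bases before the start. Such a motif, on either strand, was in 5.59% of 32619 promoter windows of 300 bases. Of the 9 genes, 8 had a promoter window and Il6 alone held this motif, while Il10 had no window. No STAT6 type motif, TTCNNNNGAA, was in the Il6 window. These letters describe the window and identify no bound factor.

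Il12a encodes the p35 subunit, which pairs with the product of Il12b to make IL-12. It lies on the plus strand at chr3:68690644-68698547 (ENSMUSG00000027776.12). It had 2 loops in CTR, 6 in IL4, 4 in preIL4, 1 in IFNG and 1 in preIL4IFNG. All 7 bin pairs joined an upstream stretch between 68600001 and 68640000, mostly inside Schip1 and Iqschfp, to the gene or the 20 kb behind it. All 7 were matched in all 5 lists within 25 kb. Each lay within that distance of 1 pair called in every list, so this matching could not tell them apart. In identical bins, 1 of the 7 was in all 5 lists.

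The pair between chr3:68610001-68620000 and chr3:68710001-68720000 was called in every list. It had 48 contacts in CTR, 43 in IL4, 52 in preIL4, 57 in IFNG and 65 in preIL4IFNG. The intervals at the ends of this range, 31.1 to 57.9 for 43 contacts and 50.2 to 82.8 for 65, overlapped. Relative to span, the strength was 1.05 in IL4 and 1.62 in preIL4IFNG. The lists with 1 loop thus held its highest counts. One bin nearer the gene, the pair from 68610001 to 68700001 had 38, 44 and 42 contacts in CTR, IL4 and preIL4 and was not called in IFNG or preIL4IFNG. The TSS bin itself, chr3:68690001-68700000, was an anchor only in IL4, with 47 contacts to 68610001.

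The anchor behind Il12a that all lists share held 1 match to the CTCF core, CCNCNAGNNGGCNC, searched on both strands with no mismatch. It is shown in capitals with 20 bases on each side, from GRCm38.p6 at chr3:68717511-68717564, plus strand, beside the 250 bases before the Il12a start, chr3:68690394-68690643, plus strand, with a STAT6 type match in capitals.
Il12a anchor: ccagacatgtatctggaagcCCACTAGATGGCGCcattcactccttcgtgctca
Il12a promoter: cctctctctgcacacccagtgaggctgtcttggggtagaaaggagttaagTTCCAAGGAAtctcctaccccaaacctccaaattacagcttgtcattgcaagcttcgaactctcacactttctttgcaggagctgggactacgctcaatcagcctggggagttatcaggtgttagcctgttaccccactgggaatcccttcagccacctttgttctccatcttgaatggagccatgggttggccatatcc
Read 5′ to 3′ on the plus strand, the core at this anchor runs away from Il12a. The CTCF core was in 4.51% of all 255946 bins of the autosomes and X, in 8.26% of the 70658 bins that were an anchor in any list, and in 10.4% of the 193 anchor bins near the 9 genes. At Il6 it was in 0 of 13 anchor bins. The STAT6 type motif was in 6.99% of promoter windows. Among the genes with a window, Il12a and Il18 held a STAT6 type match. Il12a had a further RefSeq window, from chr3:68691174, which also held a match and is not shown. The Il18 window belongs to a RefSeq start that differs from the TSS used for its loops.

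Il12b encodes the p40 subunit shared by IL-12 and IL-23 and lies at chr11:44400063-44414033, plus strand (ENSMUSG00000004296.14). It had 8 loops in CTR, 9 in IL4, 10 in preIL4, 15 in IFNG and 12 in preIL4IFNG. None of the 38 bin pairs had an anchor on the TSS bin. The loops were long, with a median span of 555 kb, and ran from the Adra1b region, between 43710001 and 43880000, mostly to bins between 44310001 and 44350000, upstream of the TSS.

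The pair from 43780001 to 44320001 was called in 4 lists, with 21 contacts in IL4, 20 in preIL4, 27 in IFNG and 31 in preIL4IFNG. The bin 20 kb further out gave the pair from 43760001 to 44320001, with 27 contacts in CTR, 16 in IL4, 20 in preIL4 and 22 in IFNG. The first pair was not called in CTR and the second not in preIL4IFNG, and both had a match in all 5 lists within 25 kb, as did 21 of the 38. The Adra1b anchor of the first pair held 2 CTCF core matches, and the second is shown, from chr11:43783907-43783960, plus strand.
Il12b anchor: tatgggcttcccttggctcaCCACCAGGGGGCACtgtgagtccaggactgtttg
Read 5′ to 3′ on this strand, the core runs towards Il12b.

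Only preIL4IFNG held short loops at Il12b. The pair from 44370001 to 44440001 had 59 contacts (44.9 to 76.1) at 1.23 times the median of its span and enclosed the gene and its TSS. Beside it 44350001 met 44440001 with 33 contacts (22.7 to 46.3), and 44470001 in Ublcp1 met 44510001 in Rnf145 with 57 (43.2 to 73.9). None of the 3 had a match within 25 kb in another list, and all other loops near Il12b spanned 440 to 780 kb.

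**Figure D2:**
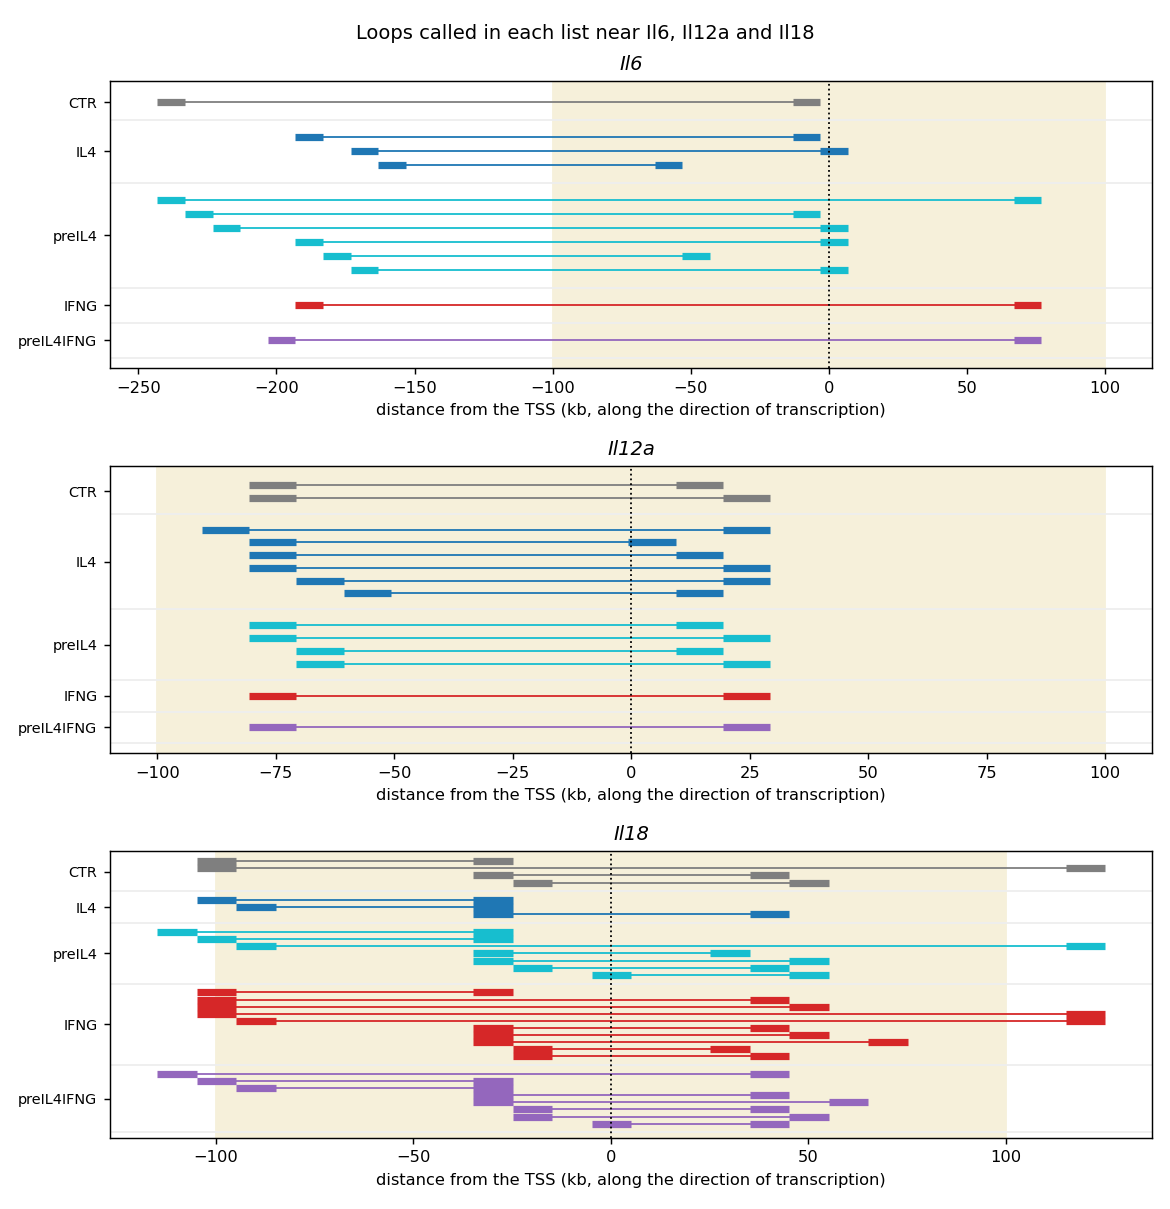
Loops called in each list (rows, coloured by list) near Il6, Il12a and Il18, drawn as thick 10 kb anchor bins joined by a thin line against distance from the TSS (x axis, kb, along the direction of transcription). The shaded band is 100 kb on either side of the TSS (dotted line). At Il6 an anchor covers the TSS only in IL4 and preIL4, and at Il12a all loops join the same flanks.

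**Figure D3:**
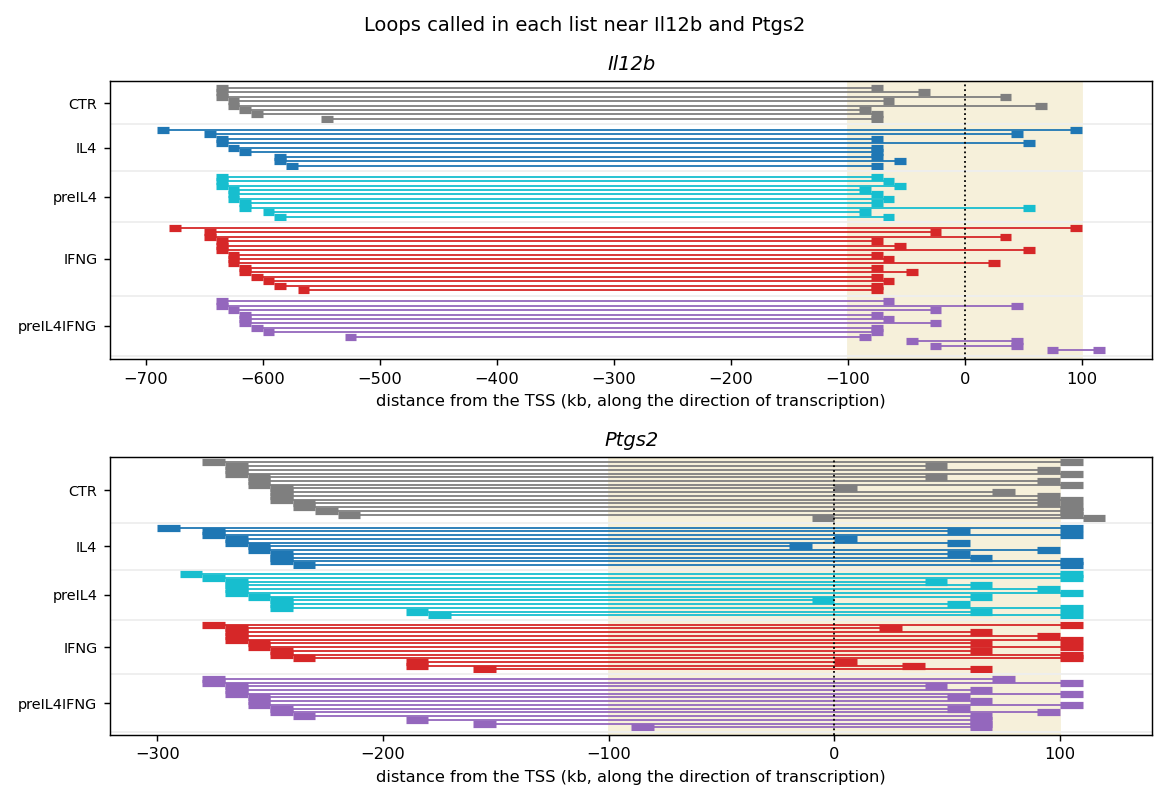
Loops called in each list (rows) near Il12b and Ptgs2, drawn as in the map for Il6. The 3 loops shorter than 100 kb at Il12b are in preIL4IFNG, and the remaining Il12b loops reach over 400 kb upstream in every list.

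Il18 belongs to the IL-1 family and needs cleavage before release. It lies at chr9:50554827-50581840, plus strand (ENSMUSG00000039217.13). It had 4 loops in CTR, 3 in IL4, 7 in preIL4, 10 in IFNG and 8 in preIL4IFNG. The loops joined the Pts and Bco2 side upstream to Sdhd and its neighbours downstream, so 13 of 18 bin pairs spanned the TSS. The spanning pairs numbered 3, 1, 4, 9 and 5 in CTR, IL4, preIL4, IFNG and preIL4IFNG.

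The pair from 50520001, which holds the Pts TSS, to 50590001 in Sdhd had 61 contacts in CTR, 50 in IL4, 51 in IFNG and 79 in preIL4IFNG (62.5 to 98.5), the most of any Il18 pair. In preIL4 this exact pair was missing, and 50520001 met the bins on either side of it, 50580001 and 50600001, with 54 and 37 contacts. One pair was called in all 5 lists, from 50450001 to 50520001, with 65, 69, 57, 60 and 53 contacts in the order above. It lies wholly upstream of the gene and does not span it. The 3 pairs matched only in IFNG and preIL4IFNG joined 50440001 or 50450001 to Sdhd over 140 to 150 kb, with 38 and 31 contacts in IFNG and 23 in preIL4IFNG. The TSS bin was an anchor in preIL4, with 39 contacts, and in preIL4IFNG, with 55.

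Il1a and Il1b, which encode the IL-1 cytokines that signal through the IL-1 receptor, both lie on the minus strand of chromosome 2, at chr2:129299610-129309972 (ENSMUSG00000027399.1) and chr2:129364570-129371139 (ENSMUSG00000027398.13). Their starts are 61.2 kb apart, and they shared 52 bin pairs, 63.4% of those of Il1a and 76.5% of those of Il1b, so they are not independent. Il1a had 36, 41, 41, 33 and 43 loops and Il1b had 29, 29, 35, 28 and 29 in CTR, IL4, preIL4, IFNG and preIL4IFNG. Neither count moved far with treatment.

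The Il1a TSS bin, chr2:129300001-129310000, was an anchor in every list and reached 60 to 120 kb upstream, across Il1b. Its pair with 129400001 had 55 contacts in CTR, 65 in IL4, 73 in preIL4 (57.2 to 91.8), 53 in IFNG and 51 in preIL4IFNG (38.0 to 67.1). The preIL4 count was the highest, and its interval overlapped those of the other lists. The pair with 129410001 was flat, at 49, 49, 49, 53 and 57 contacts.

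The pair between the Il1a TSS bin and 129360001, which holds the body of Il1b, had 55 contacts in CTR, 55 in IL4 and 48 in preIL4. It was not called in IFNG or preIL4IFNG. The pair with 129380001 had 54, 49 and 48 contacts in the same lists and 46 in preIL4IFNG and was not called in IFNG. Within 25 kb both pairs had a match in all 5 lists. The bin of the Il1b TSS was an anchor only in preIL4, where it met 129320001 with 39 contacts (27.7 to 53.3).

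Some loops near these genes were called in the same bins in a single list. The adjacent bins 129210001 and 129220001, at Slc20a1, had 194 contacts in CTR, the highest count near Il1a, and were not called elsewhere. The adjacent bins from 129470001 in F830045P16Rik had 168 contacts in preIL4, with a match within 25 kb in CTR. Contacts with the next bin are high at any locus, and relative to their span these loops had strengths of 1.37 and 1.16.

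Tnf, a cytokine that activates NF-kB and can kill cells, lies at chr17:35199381-35202007 on the minus strand (ENSMUSG00000024401.14), in the gene-dense class III region of the major histocompatibility complex. It had 58 loops in CTR, 57 in IL4, 71 in preIL4, 72 in IFNG and 67 in preIL4IFNG. Of its 102 bin pairs, 95 were matched in all 5 lists within 25 kb and 35 were called in the same bins in all 5. The share matched within 25 kb was the highest of the 9 genes except Il12a, whose 7 pairs were all matched. Il10 was close, with 31 of 34. A locus with many loops offers each pair more neighbours to match.

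The TSS bin, chr17:35200001-35210000, also holds the start of Lta, a related cytokine gene. It met the bin 30 kb away that holds the starts of Nfkbil1 and Atp6v1g2 with 115 contacts in CTR (94.9 to 138), 139 in IL4 (117 to 164), 128 in preIL4, 135 in IFNG and 113 in preIL4IFNG. Strengths were 1.58 to 1.96, so this pair lay above the median of its span in every list, and the intervals of the lists overlapped. Other loops converged on the same bin. Aif1, which encodes a macrophage actin-binding protein, met it with 157, 147, 156, 170 and 169 contacts, and Prrc2a met it with 116, 115, 120, 115 and 125. Loops near Tnf had the highest strengths of the 9 genes, up to 2.83 in IL4 and 3.31 in preIL4IFNG.

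The bin at Nfkbil1 held a CTCF core match on the minus strand, shown in capitals from chr17:35232179-35232232. Read 5′ to 3′ on that strand, the core runs towards Tnf.
Tnf partner bin: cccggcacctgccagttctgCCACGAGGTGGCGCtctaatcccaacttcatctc
On the other side, contacts of the TSS bin were called in fewer lists. The pair with 35170001 at Aif1 had 71 contacts in CTR, 74 in preIL4, 88 in IFNG and 71 in preIL4IFNG and was not called in IL4. The pair with 35160001 at Prrc2a had 56 contacts in CTR and 65 in preIL4. The pair with 35180001 at Lst1 had 73 in preIL4 and 69 in preIL4IFNG. IL4 was the list with none of these, and each of the pairs had a match within 25 kb in it through neighbouring bins.

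**Figure D4:**
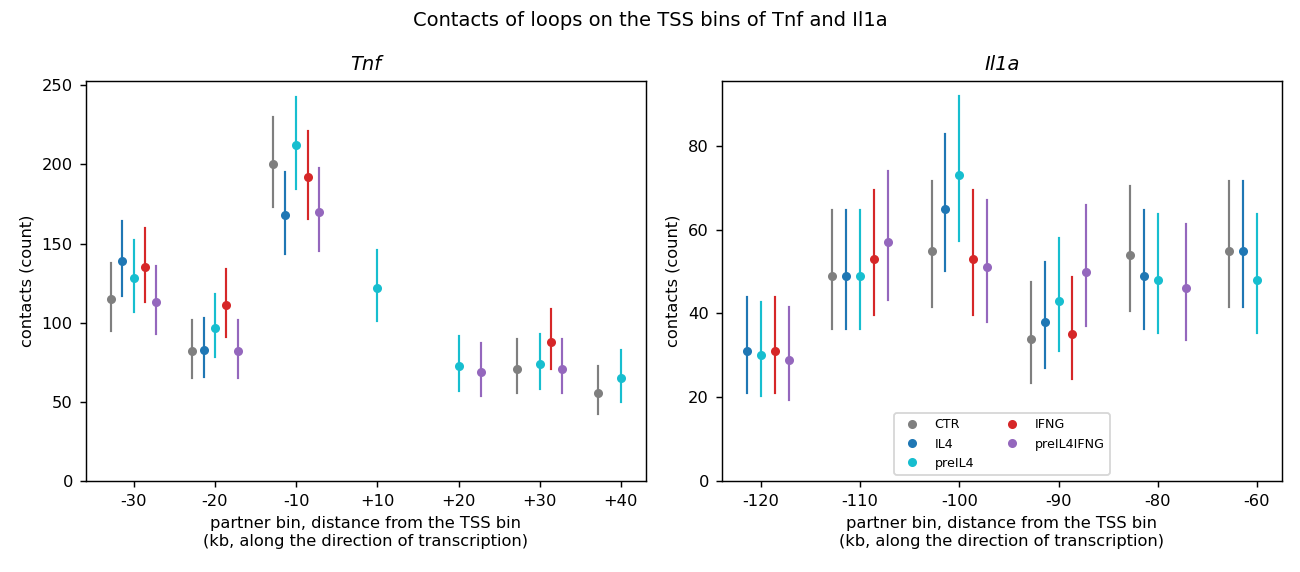
Contacts (y axis, count, from 0) of each loop called on the TSS bin of Tnf and of Il1a, by the distance of the partner bin (x axis, kb along the direction of transcription). Points are lists, bars are exact 95% Poisson intervals, and a missing point is a pair not called in that list. At partner bins called in all 5 lists the intervals overlap.

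Il10 encodes a cytokine that restrains macrophage activation and lies at chr1:131019845-131024974, plus strand (ENSMUSG00000016529.5). It had 16 loops in CTR, 13 in IL4, 21 in preIL4, 20 in IFNG and 15 in preIL4IFNG. No loop had an anchor on the TSS bin. The start lies 155 bases from the end of its bin, and the next bin, which holds the gene body, was an anchor once, with 101 contacts to its neighbour in IFNG (82.3 to 123).

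Of 34 bin pairs, 13 spanned the Il10 start, from Fcmr and Il24 or from 130980001 upstream to Mapkapk2, a stress kinase gene, downstream. The pair from 130980001 to 131050001 had 65 contacts in CTR, 58 in IL4, 67 in preIL4, 62 in IFNG and 72 in preIL4IFNG. This loop around the gene was in all lists at like counts. The longer pair from 130870001 to 131050001 had 56, 71, 43, 45 and 36 contacts in the same order. IL4 was highest (55.5 to 89.6) and preIL4IFNG lowest (25.2 to 49.8), and their intervals did not overlap, although this pair was singled out after its values were seen. Adjacent bins inside Mapkapk2, from 131070001, had 130 contacts in preIL4, 125 in IFNG and 122 in preIL4IFNG and were called in neither other list.

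Ptgs2 lies at chr1:150100031-150108227, plus strand (ENSMUSG00000032487.8). It had 16 loops in CTR, 11 in IL4, 12 in preIL4, 13 in IFNG and 14 in preIL4IFNG. Most of its 37 bin pairs, 32, spanned the TSS, nearly all from bins in or beside Pla2g4a, upstream, to bins as far as 120 kb downstream. Pla2g4a encodes the phospholipase that frees arachidonic acid, the substrate of the Ptgs2 enzyme. The loops were weak for their span, with a median strength of 0.74 to 0.95 per list.

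The pair called in every list joined 149820001 to 150200001 with 14 contacts in CTR, 17 in IL4, 18 in preIL4, 22 in IFNG and 19 in preIL4IFNG. These low counts have wide intervals, which overlap. The pair from 149940001 in Pla2g4a to 150160001 had 28 contacts in IFNG and 28 in preIL4IFNG (18.6 to 40.5), and had no match elsewhere. This is the highest count near Ptgs2, shared with 1 further pair, from 150010001 to 150160001, called in preIL4IFNG alone. The TSS bin was an anchor in 3 lists, each time with a different bin of Pla2g4a, with 19 contacts in CTR, 19 in IL4 and 23 in IFNG. A CTCF core match lay in the Pla2g4a bin that met the TSS bin in CTR, and is shown from chr1:149856853-149856906, plus strand. On that strand the core runs towards Ptgs2.
Ptgs2 anchor: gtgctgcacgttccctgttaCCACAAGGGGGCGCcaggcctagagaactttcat

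The 6 comparisons that the design implies were then made on loop numbers, scaled by the length of each list. For a gene, 1 was added to each count, and a change of at least 1.5-fold was counted where the pair of lists held at least 10 loops together. No test applies to 1 list per group, so counts are set beside the share of all genes past the same fold. Comparisons share lists (CTR is in 3 of them) and are given separately.

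IL-4 exposure was addressed first. Over the 9 genes the scaled ratio of IL4 to CTR was 0.911 (95% interval 0.718 to 1.15, counting error only), and the median log2 ratio was -0.14 over 6 genes against -0.02 over all genes. None of the 6 was higher, where 8.5% of genes were, and 1 was lower, where 7.44% were. The lower gene was Ptgs2, with 11 loops against 16 and a log2 ratio of -0.63. With a 50 kb window or without scaling no gene was lower.

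After washout, the ratio of preIL4 to CTR was 0.968 (0.773 to 1.21), with a median log2 ratio of -0.05 over 7 genes against -0.03. None was higher (7.18% of all genes) and 1 was lower (5.18%), again Ptgs2, at -0.73. No gene was lower with a 50 kb window or without scaling, and 3 were with touching bin pairs merged. Il6 had too few loops for this count, and its log2 ratio of 1.47, from 6 loops against 1, is given as a value only. Between washout and IL-4, preIL4 to IL4, the ratio was 1.06 (0.849 to 1.33). Il18 was higher at 0.78, with 7 loops against 3 (7.79% of genes), and Il12a was lower at -0.70, with 4 against 6 (6.22%). With touching bin pairs merged no gene was higher or lower, with a 50 kb window none was higher, and without scaling none was lower and 2 were higher. The median of 8 genes was -0.02, the same as that of all genes.

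The response to IFNG was addressed in unprimed and in primed cells. For IFNG to CTR the scaled ratio was 1.15 (0.913 to 1.44), and the median log2 ratio was 0.26 over 7 genes against -0.04 over all genes. Il18 was higher at 1.10 and Il12b at 0.79, so 2 of 7 genes passed where 9.85% of all genes did, and none was lower (7.92%). With touching bin pairs merged, 0 genes were higher and 2 were lower, and with a 50 kb window 1 was higher. In primed cells, preIL4IFNG to preIL4, the ratio was 0.937 (0.754 to 1.16), and none of 7 genes was higher (8.83%) or lower (6.35%). Il18 had a log2 ratio of 0.19 and Il12b of 0.26 there. Il6 fell outside the count again, with 1 loop against 6.

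Priming before IFNG was addressed last. For preIL4IFNG to IFNG the scaled ratio was 0.792 (0.636 to 0.987), and the median log2 ratio was -0.39 over 7 genes against -0.02. None was higher (7.52%) and Il10 was lower (5.12%), with 15 loops against 20 and a log2 ratio of -0.68. Tnf, with 67 against 72 loops, had -0.39, and Il12b and Il18 had -0.58 and -0.57. The unscaled numbers, 165 and 171 loops, were close, and the list of primed cells was 1.22 times as long. The interval of the ratio included 1 with a 50 kb window (0.862, 0.650 to 1.14), without scaling (0.965, 0.774 to 1.202) and with touching bin pairs merged (0.828, 0.532 to 1.29), and its upper end was 1 without adjacent bins. No gene was lower with a 50 kb window or without scaling, and 3 were with a pseudocount of 0.5.

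**Figure D5:**
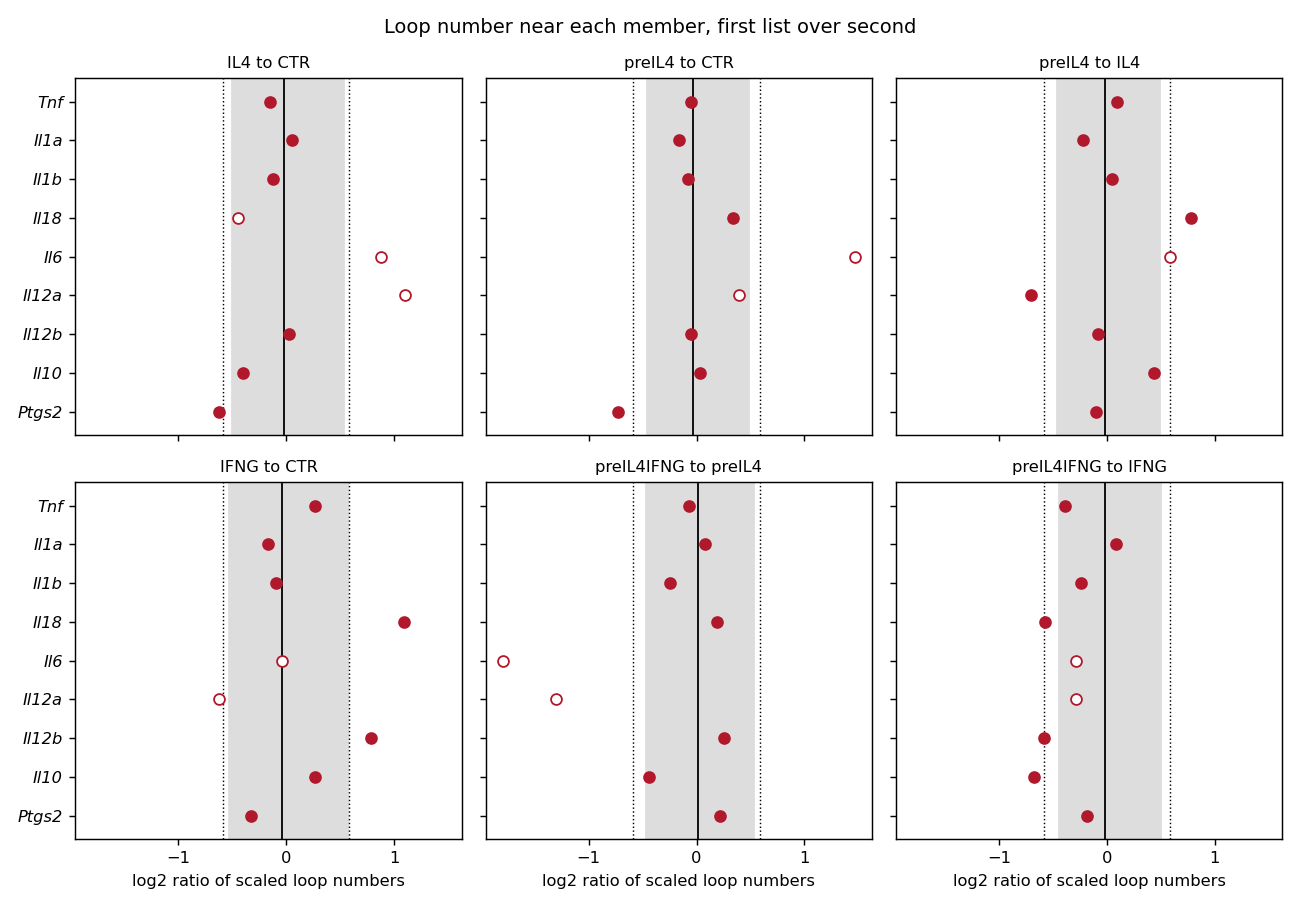
Log2 ratio of scaled loop numbers (x axis) for each gene (y axis) in the 6 comparisons, first list over second. Filled points are genes with at least 10 loops in both lists together and open points have fewer, the grey band spans the 10th to 90th percentiles of all genes, the line is their median and the dotted lines mark 1.5-fold. Most filled points lie inside the band, and Ptgs2 lies below it in both comparisons of an IL-4 list with CTR.

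Contacts were then compared at bin pairs called in both lists, summed per gene, by a two-sided exact binomial test with Benjamini-Hochberg adjustment over all genes, which compares lists and not conditions. In IL4 against CTR, 0 of 8 genes passed an adjusted p of 0.05 (0.0151% of 13268 genes passed). The count was also 0 of 8 in preIL4 against CTR (0% of 13475), 0 of 9 in preIL4 against IL4 (0%), 0 of 8 in IFNG against CTR (0.0913%), 0 of 8 in preIL4IFNG against preIL4 (0.0216%) and 0 of 8 in preIL4IFNG against IFNG (0%). None of the 9 genes had an unadjusted p under 0.05 in any of the 6. Over all genes the numbers ran from 330 of 13582 (preIL4 against IL4) to 611 of 13268 (IL4 against CTR). At such small shares, 0 of 8 or 9 genes does not set these genes apart. The lowest p among them, 0.0976 by the exact binomial test, was that of Il10 in IL4 against CTR.

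The width of the intervals shows what the counts could resolve at pairs called in both lists. A pair missing from either list did not enter. The test can thus miss pairs whose contacts changed enough to gain or lose a call. At Tnf, 41 bin pairs held 3526 contacts in IL4 and 3612 in CTR, a log2 ratio of -0.03 (-0.10 to 0.03). At Il1a, 23 pairs held 981 and 971 contacts, a log2 ratio of 0.02 (-0.11 to 0.15). Changes of 1.5-fold in the pairs called in both lists lay outside these intervals. At Il6, only preIL4 against IL4 had such a pair, with 23 and 25 contacts and a log2 ratio of -0.16 (-1.05 to 0.71), a wide interval. At Ptgs2, 6 pairs held 114 contacts in IFNG and 98 in CTR, a log2 ratio of 0.17 (-0.23 to 0.58). At Il12a, a single pair held 65 contacts in preIL4IFNG and 52 in preIL4, 0.34 (-0.21 to 0.90).

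Whether the IFNG effect differed between primed and unprimed cells was tested at bin pairs called in all 4 lists concerned. Loops gained or lost between these lists could not enter and were not tested. Il6 and Il12b had no pair called in all 4. Of 7 genes with such pairs, 0 passed (0% of 11787 genes passed, and 341 had an unadjusted p under 0.05), and none of the 7 had an unadjusted p under 0.05. At Tnf, with 39 pairs, the difference of log2 ratios was -0.02, and at Il10, with 9 pairs, it was 0.16.

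Of the 345 bin pairs, 265, or 76.8% (95% Wilson interval 72.1 to 81.0), were matched in all 5 lists within 25 kb, against 64.5% of the 153264 pairs in the series. The interval takes the pairs as independent, although neighbouring pairs can share a match, so it is likely too narrow. Tnf gave 95 of the 265, and more loops at a locus give each pair more chances of a match. In identical bins, 54, or 15.7%, were in all 5 lists, against 9.18% of the series, and 158, or 45.8%, were in 1 list only, against 55.5%. The shares matched in all 5 lists within 25 kb differed by gene. They ran from all 7 pairs at Il12a and 95 of 102 at Tnf to none of 11 at Il6. Between these were 25 of 37 at Ptgs2, 21 of 38 at Il12b and 10 of 18 at Il18. By calls in CTR, IL4 and preIL4, 2 pairs were Transient (in IL4 only), 5 Memory and 8 Primed, or 0.580%, 1.45% and 2.32% of the 345, where the series had 2.75%, 2.40% and 3.69%. Il6 held 3 of the 5 Memory pairs. Pairs matched only in IFNG or preIL4IFNG numbered 19, or 5.51%, against 4.60% of the series.

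The range of scaled loop number over the 5 lists was taken with 1 added to each count. It was widest at Il12a, 4.03-fold from 14 loops, followed by Il6, 3.46-fold from 12 loops, and Il18, 2.91-fold from 32. Counts this low carry wide counting error. Among genes with 20 or more loops, a set that leaves out Il12a and Il6, the median range was 1.53-fold. Il1a had the narrowest range, 1.17-fold from 194 loops. The genes whose pattern over the 5 lists was most like that of Il12a, by the root mean square difference of centred log2 values among 12927 genes, were Hpse2 (0.14), Kbtbd13 (0.17) and Rasl12 (0.17). Hpse2 had 6, 11, 9, 3 and 3 loops in the order of the lists. Kbtbd13 and Rasl12 had identical numbers, 9, 16, 14, 5 and 4, so they may not be independent.

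Receptors, antagonists and signalling genes of the same pathways were counted as well, 24 genes of which 20 had enough loops in each comparison. Past 1.5-fold were Tnfaip3, an inhibitor of NF-kB signalling, in IL4 to CTR (32 loops against 18, log2 ratio 0.67) and in IFNG to CTR (40 against 18, 1.07). Il18bp, the secreted antagonist of IL-18, was higher in preIL4 than in CTR (30 against 14, 0.71) and than in IL4 (30 against 13, 0.93). The IL-18 receptor genes Il18r1 and Il18rap, which are neighbours, were lower in preIL4 than in CTR, at -0.66 and -0.59. Thus 1 of 20 was higher and 0 lower for IL4 to CTR, 1 and 2 for preIL4 to CTR, 1 and 0 for preIL4 to IL4, 1 and 0 for IFNG to CTR, and 0 and 0 in both comparisons of preIL4IFNG. Of all genes, 8.5% were higher and 7.44% lower for IL4 to CTR, and 5.12% to 9.85% passed in either direction in the 6 comparisons, so 0 to 2 of 20 genes is near or below the background. The contact test called 0 of the 20 in every comparison. Il12rb2 and Casp1 had no loop in any list.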

How the data were processed

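Hi-C loop lists of 10 samples in 5 groups of 2 were analysed, with groups taken from the sample titles. Replicates appeared merged, with 1 list per group. In each list, the deposited column of contacts held whole-number counts per pair of 10 kb bins, with no apparent normalization. The submitters' processing notes name FastQC, Bowtie2, HiC-Pro, Juicer, HOMER and mm10. The authors' methods describe balanced maps and HICCUPS loops in wider bins, so the caller and threshold of the lists are not given in the sources used here. A longer list may reflect depth or calling as well as looping. Library depth was not analysed here.

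The 9 genes, the 24 pathway genes, the motifs and the comparisons were chosen with earlier results of these data known. Loops were counted once per gene. Named loops were, per gene, the one with most contacts, the one with most contacts on the TSS bin at a span of at least 20 kb, and the one with most contacts among those not matched in all 5 lists within 25 kb. Other loops named were chosen after their values were seen, as were other genes, which only place an anchor. Wilson, exact binomial and Poisson intervals are at 95%. The binomial contact test was also run on simulated counts for IL4 against CTR. These were drawn with counting error only, at pairs called in both lists. They therefore do not check the test against replicate spread or lost calls. Genome and promoter sequences were those of RefSeq on GRCm38.p6, the build of mm10, and 8 of 9 genes had a promoter window. Matches to 1 further promoter motif are not reported here. Scripts ran under Python 3.11.15 with scipy 1.17.1, pandas 2.3.3, numpy 2.4.6 and, for plots, matplotlib 3.10.9. Alternatives were a 50 kb window, no scaling, merging of touching bin pairs, leaving out adjacent bins, a pseudocount of 0.5 and matching in the same bins.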

Additional observations from a re-analysis of the deposited data

How the results depend on the processing

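No paired analysis was possible because the lists carry no replicate number, as 1 list stands for each group, and for the same reason no replicate could be left out. Of 97 alternatives over 25 results, 77 left the result within 1.5 times a count or within the counting interval and 20 moved it. Directions turned in several: the ratio of IL4 to CTR was 1.03 and that of preIL4 to IL4 0.955 with a 50 kb window, with intervals that included 1, as in the main setting, and the counts for preIL4 to CTR and IFNG to CTR turned as given here. The exact binomial contact tests called 0 of the 9 genes with a 50 kb window and without adjacent bins, the alternatives run for them, and 0 had an unadjusted p under 0.05 in the main setting. Counts of genes past 1.5-fold are small, so single genes near the limit move them. With a 50 kb window, 0 genes were lower in IL4 to CTR, preIL4 to CTR and preIL4IFNG to IFNG, 0 were higher in preIL4 to IL4, and 1 was higher in IFNG to CTR. Without scaling, the ratio of preIL4 to CTR was 1.23, with 1 gene higher and 0 lower. For preIL4 to IL4 2 were higher and 0 lower, and 0 were lower for IL4 to CTR and for preIL4IFNG to IFNG. With touching bin pairs merged, 3 genes were lower for preIL4 to CTR, 0 were higher and 0 lower for preIL4 to IL4, 0 were higher and 2 lower for IFNG to CTR, and 1 was higher for preIL4IFNG to preIL4. With a pseudocount of 0.5, 3 were lower for preIL4IFNG to IFNG. Matching in the same bins put 15.7% of bin pairs in all 5 lists, as it allows fewer matches. Other causes were not tested. Loops of 10 to 30 contacts carry wide counting error.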
